A study of Rattus norvegicus with 28 samples.

Results

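Gene expression at 16 h of exendin-4 (Ex-4), which activates the GLP-1 receptor, was compared directly with that at 8 h in Med14 S983A INS-1 cells. The comparison used 4 of the 28 bulk RNA-seq libraries of the series, chosen by genotype, agent and hours: the 2 Med14 S983A libraries at 8 h and the 2 at 16 h of 10 nM Ex-4. INS-1 is an insulin-secreting line derived from a rat insulinoma. Med14 S983A cells carry a CRISPR knock-in that replaces a serine of Med14, a subunit of the Mediator complex, with alanine. All cells were placed in serum-free medium before treatment, and they were grown with 10% fetal serum until then. Knock-in lines were each grown from a single sorted cell, the study used more than 1 such line, and whether the 2 replicates here are of the same line is not given in the sources used here. The most like comparisons in the series were 16 h against 8 h of Ex-4 in WT cells, and 16 h against 8 h of 10 µM forskolin (FSK), an activator of adenylyl cyclase, in Med14 S983A cells, each with 2 libraries per time. The labels give 1 untreated group per genotype (CON) with no hours, so hours of exposure and hours in serum-free medium cannot be told apart. The labels do not say that replicates came from separate cultures, so p-values measure only the spread between libraries of a group. That spread was estimated once per gene over all 28 libraries, not from the 4 compared alone.

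Ex-4 raises cAMP, which activates protein kinase A and the factor CREB and induces early genes within an hour, many of which feed back on the pathway. Insulin-secreting cells rely on chaperones of the endoplasmic reticulum to fold hormone precursors. Dividing cells switch on a program of mitotic genes late in the cycle, while shortage of amino acids or other stress raises the translation of ATF4, a factor that turns on genes for amino acid uptake and synthesis.

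The 4 libraries held 41862970 to 51811413 fragments, and 10117 to 10140 genes reached 1 TPM, a read measure scaled for transcript length and library depth, in each. Replicates differed by more than counting noise, since chi-square over its degrees of freedom was 2.46 at 8 h and 7.58 at 16 h, and their Pearson r over genes was 0.999 and 0.998. Spike-in RNA made up 0.851% and 0.919% of fragments at 8 h and 1.05% and 0.904% at 16 h. Med14 itself (NM_001191727, rn6 chromosome X, 10964035 to 11080894) was at 25.5 and 25.4 TPM at 8 h and 21.1 and 19.8 TPM at 16 h, a log2 change of −0.30 (adjusted p 0.000741 by limma, SE 0.067), and its level does not check a knock-in of 1 residue. All 13 beta cell identity markers found in the table were detected. Of 9 alpha cell markers 6 stayed under 1 TPM in all 4 libraries, as did 6 of 7 delta and PP cell markers, 17 of 20 acinar, 6 of 8 duct and 17 of 20 stromal, endothelial and immune markers. The summed level was 46.4 to 50.7 TPM for the alpha list, 4.32 to 5.47 for delta and PP, 146 to 173 for acinar, 206 to 221 for duct and 11.2 to 13.7 for stromal, endothelial and immune markers. The delta and PP, acinar, duct and stromal sums were each higher in both 16 h libraries than in both 8 h libraries, the alpha sums overlapped, and their part in the results below was not tested.

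Between 8 and 16 h, more genes fell than rose, and most changes were modest. Of 10275 genes tested with limma, 128 rose (1.25%) and 279 fell (2.72%), at 1.5-fold and an adjusted p under 0.05, or 407 in all (3.96%). Only 18 of the rises and 28 of the falls exceeded 2-fold, and 361 calls were smaller. The 2 groups of libraries did not overlap for 72.0% of all genes tested, so separate groups alone do not mark a gene out. The median log2 change of all genes was −0.03 in TPM and −0.15 when libraries were scaled on the spike-ins, and the changes below are in log2(TPM + 1), which understates the change of low genes. Scaling on the spike-ins gave 84 higher and 449 lower genes, and DESeq2 with spike-in size factors gave 113 higher and 629 lower. Without the fold minimum, 1803 genes were higher (17.5%) and 2499 lower (24.3%), and these are the shares to set beside the members that passed the adjusted p in each list. Counts of called members are to be set beside 1.25% higher and 2.72% lower. With spike-in scaling they are to be set beside 84 higher and 449 lower of 10275 genes.

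**Figure D1:**
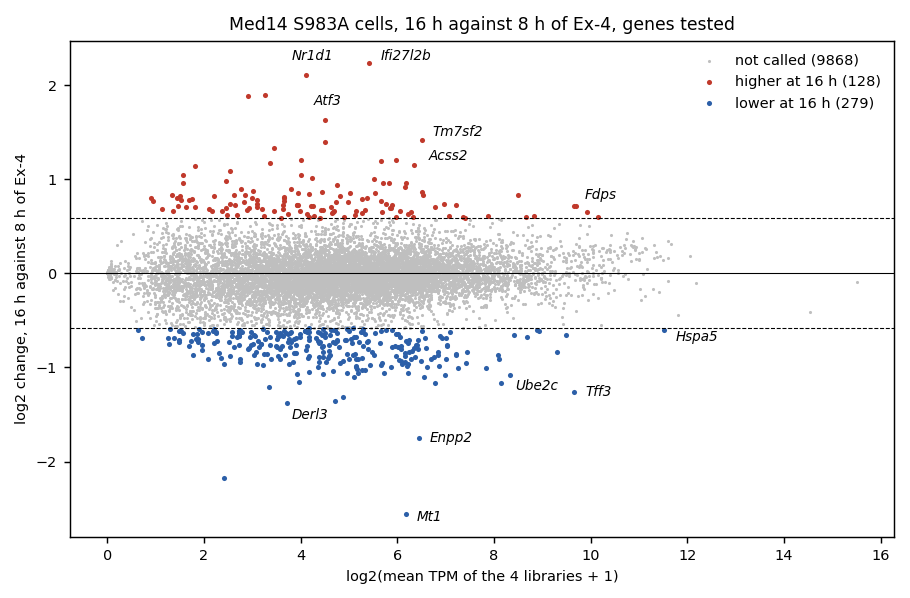
Log2 change from 8 to 16 h of Ex-4 in Med14 S983A cells (vertical axis) against the log2 mean TPM of the 4 libraries (horizontal axis), 1 point per gene tested, dashed lines at 1.5-fold. The 279 lower genes reach −2.56 for Mt1 and the 128 higher genes reach 2.23 for Ifi27l2b.

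The clearest group was the mitotic genes, all of which fell. Each of 37 members of the list for mitosis and G2/M was called lower at 16 h, against 2.72% of all genes, with a median log2 change of −0.94 and a range of −1.16 to −0.71. The list took up 0.401% and 0.395% of all TPM at 8 h and 0.199% and 0.205% at 16 h, while it had been at 0.388% and 0.373% in CON and 0.355% and 0.348% at 1 h. The 8 h libraries were thus slightly above CON and the 16 h libraries far below both. All 37 calls held under every scaling and with edgeR, and the median was −1.06 with spike-in scaling. Fewer dividing cells and less of these RNAs per cell cannot be told apart in bulk libraries.

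Ube2c (NM_001106542, rn6 chromosome 3, 161236971 to 161239371), the ubiquitin-conjugating enzyme of the anaphase-promoting complex, was at 387 and 389 TPM at 8 h and at 169 and 176 TPM at 16 h. Its groups lay far apart, with a log2 change of −1.16 (adjusted p 2.09e-16 by limma, SE 0.043). Plk1, a kinase that drives entry into and passage through mitosis, went from 153 and 148 to 63.6 and 70.2 TPM, a log2 change of −1.16 (adjusted p 5.54e-16 by limma, SE 0.045). Both 16 h libraries of Plk1 were also below the CON libraries, which held 143 and 151 TPM. Birc5, a subunit of the chromosomal passenger complex, went from 128 and 125 to 59.3 and 57.01 TPM (log2 change −1.10, limma adjusted p 5.30e-17). Ccna2, which encodes cyclin A2, went from 174 and 166 to 79.5 and 79.8 TPM. Ccnb2, a B-type cyclin, went from 48.7 and 48 to 21.7 and 23.9 TPM. In each of these genes the 8 h and 16 h libraries were separate, and replicates lay close together beside the step between the times. Fam83d, a spindle protein, fell by 1.32 on the log2 scale. Kif18b, a mitotic kinesin, changed by −1.10 and Cenpa, the histone variant of the centromere, by −1.05.

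Promoters of the mitotic genes carried a pair of sequence features more often than promoters at large. In the 250 bases before the start site, 23 of the 30 list members with a RefSeq promoter (76.7%) held CCAAT, the core that the factor NF-Y recognises, on either strand, against 35.7% of 8422 promoters of genes tested. The letters TTTGAA of the cell cycle genes homology region stood in 15 of 30 (50%), against 9.58%. Among all genes called lower, 60.3% of 224 promoters held CCAAT and 31.2% held TTTGAA, and the mitotic genes are part of that group. Among genes called higher the shares were 40.4% and 5.05% of 99. CCAAT was not particular to genes that fell, since 13 of 16 promoters of cholesterol biosynthesis genes (81.2%), a list that leaned upward, held it. Its share was 61.3% for the DNA replication list, 58.8% for clock genes, 47.8% for ATF4 targets and 23.8% for CREB targets. TTTGAA stood in 12.5% of the cholesterol promoters and 3.23% of the replication promoters. The 4 promoters printed here are of mitotic genes that hold both sets of letters, from RefSeq (GRCr8), 5′ to 3′ and ending at the last base before the start site, with the letters of either motif, on either strand, in capitals. They are Cdk1 (chr20:19265043-19265292 on the plus strand), the central mitotic kinase, Top2a (chr10:84473094-84473343 on the minus strand), a DNA topoisomerase, Prc1 (chr1:143659231-143659480 on the plus strand), which bundles microtubules of the spindle midzone, and Cdc20 (chr5:137255800-137256049 on the minus strand), an activator of the anaphase-promoting complex.
Cdk1: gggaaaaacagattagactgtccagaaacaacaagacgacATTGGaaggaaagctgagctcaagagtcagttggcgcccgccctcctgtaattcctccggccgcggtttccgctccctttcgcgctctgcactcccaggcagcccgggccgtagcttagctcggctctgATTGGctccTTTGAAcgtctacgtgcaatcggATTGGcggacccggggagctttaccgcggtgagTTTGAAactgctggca
Top2a: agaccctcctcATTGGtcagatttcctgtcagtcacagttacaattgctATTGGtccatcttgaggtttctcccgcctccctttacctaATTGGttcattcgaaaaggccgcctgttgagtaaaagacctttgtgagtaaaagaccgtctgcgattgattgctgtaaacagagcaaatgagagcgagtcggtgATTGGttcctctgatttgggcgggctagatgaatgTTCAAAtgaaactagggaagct
Prc1: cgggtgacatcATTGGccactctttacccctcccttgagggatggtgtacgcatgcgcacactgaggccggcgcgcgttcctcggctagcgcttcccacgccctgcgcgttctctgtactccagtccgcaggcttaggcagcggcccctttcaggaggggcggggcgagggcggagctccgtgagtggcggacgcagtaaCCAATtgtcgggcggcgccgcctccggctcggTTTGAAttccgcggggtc
Cdc20: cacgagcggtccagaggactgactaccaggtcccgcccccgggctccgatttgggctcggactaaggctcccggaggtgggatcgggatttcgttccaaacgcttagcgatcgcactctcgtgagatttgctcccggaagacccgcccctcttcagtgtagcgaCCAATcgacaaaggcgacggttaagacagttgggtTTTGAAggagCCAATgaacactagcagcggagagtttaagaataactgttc
In all 4 promoters the letters TTTGAA, or TTCAAA on the opposite strand, lay within 72 bases of the start site. From 8 to 16 h, Cdk1 went from 346 and 348 to 186 and 193 TPM (log2 change −0.87), Top2a from 229 and 219 to 115 and 115 (−0.95), Prc1 from 206 and 200.3 to 97.5 and 104 (−1.002) and Cdc20 from 300.3 and 302 to 146 and 154 (−1.003). These 4 genes were chosen for their promoters after their values were seen.

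Genes of DNA replication and G1/S moved the same way but by less. Of 41 tested, 8 were called lower, against 2.72% of all genes, and none higher. Without the fold minimum 36 passed the adjusted p downward, against 24.3%, and the median log2 change was −0.35. With spike-in scaling 13 were called lower, beside 449 of all 10275 genes, and the median was −0.47. Rrm2, the regulated subunit of ribonucleotide reductase, went from 48.5 and 50.1 to 27.3 and 24.8 TPM, a log2 change of −0.90 (adjusted p 2.70e-12 by limma, SE 0.055). Tk1, thymidine kinase, went from 149.8 and 149 to 92.5 and 92.4 TPM, with a log2 change of −0.69. Other calls were Mcm10, Cdc45, Mcm5 and Gmnn, of replication licensing and its control, and Ccnd1, cyclin D1, which was at or below 1.15 TPM in all 4 libraries. Pcna, the sliding clamp, was at 557 and 559 TPM at 8 h and 450.4 and 448 TPM at 16 h, a log2 change of −0.31 that did not reach 1.5-fold. The letters TTTGGCGC of an E2F site stood in 5 of 31 promoters of this list (16.1%), against 0.76% of all, and in none of 30 of the mitotic list. The inhibitor of cyclin-dependent kinases Cdkn2c fell with the group, from 101 and 99.7 to 47.5 and 47.6 TPM (−1.06).

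Outside the cell cycle, the deepest fall was that of a metallothionein. Mt1 (NM_138826, rn6 chromosome 19, 11301991 to 11303007), a metal-binding protein, was at 152 and 166 TPM in CON, 170.5 and 162 at 1 h, 132 and 113 at 8 h and 16.2 and 24.5 at 16 h. The 3 earlier groups lay above 110 TPM while both 16 h libraries lay under 25, a log2 change of −2.56 (adjusted p 2.33e-15 by limma, SE 0.11). The related gene Mt2A, chosen after its values were seen, went from 8.98 and 6.49 to 0.542 and 1.37 TPM (−2.18). Metallothionein genes resemble each other, so the split of reads between them is uncertain. Enpp2, the secreted enzyme autotaxin that makes lysophosphatidic acid, went from 137 and 130.4 to 39.3 and 38.7 TPM, a log2 change of −1.75 (adjusted p 5.15e-18 by limma, SE 0.051). Tff3, a secreted trefoil peptide, was among the most abundant genes that fell, from 1166 and 1115 to 476 and 473 TPM, after 1575 and 1586 in CON (−1.26, limma adjusted p 1.93e-17). Cckar, a receptor for cholecystokinin, went from 20.7 and 20.6 to 9.19 and 8.303 TPM (−1.15), and Smtn, the cytoskeletal protein smoothelin, from 30.1 and 27.97 to 13.4 and 13.2 (−1.07). Mest, an imprinted gene, had gone from 50.1 and 50.9 TPM in CON to 531 and 505 at 1 h and was at 437 and 435 at 8 h and 208 and 203 at 16 h, so its fall of 1.08 on the log2 scale left it above CON. Txnip, the thioredoxin-interacting protein, was already below CON at 8 h, with 55.9 and 52.9 TPM in CON, 13.5 and 13.1 at 8 h and 5.93 and 4.49 at 16 h (−1.21). It was the 1 gene called among 12 of its list. Nqo1, a quinone reductase, fell from 40.5 and 40.9 to 23.2 and 24.6 TPM (−0.74) and was the 1 lower call among 22 NRF2 targets.

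Several chaperones of the endoplasmic reticulum (ER) were lower at 16 h than at 8 h. Of 26 ER folding genes 4 were called lower, against 2.72% of all genes, and none higher, with a median log2 change of −0.13, and 13 passed the adjusted p downward, against 24.3%. Creld2, an ER protein induced by unfolded proteins, was at 384 and 363 TPM in CON, 799 and 814 at 8 h and 457 and 443 at 16 h. The 16 h libraries thus lay between CON and 8 h, with a log2 change of −0.84 (adjusted p 9.79e-15 by limma, SE 0.039) from 8 h. Pdia4, a disulfide isomerase, followed the same order, with 479 and 438, 874 and 892 and 566 and 555 TPM (−0.65). Hspa5, the main ER chaperone BiP, was at 3569.9 and 3522 TPM at 8 h and 2422 and 2258 at 16 h (−0.60), and Hyou1, its nucleotide exchange factor, at 596 and 589 and 399 and 374 (−0.62). The calls of Hspa5 and Hyou1 were close to 1.5-fold and were lost without replicate 2 of 16 h and with edgeR or DESeq2, and that of Hspa5 also after median-centring. Derl3 (NM_001109577, rn6 chromosome 20, 13703671 to 13706232), which takes part in the removal of misfolded proteins from the ER, was the 1 call among 31 genes of ER translocation, degradation and stress control. It went from 36.4 and 37.2 to 14.3 and 13.3 TPM after 24.9 and 26.1 in CON, a log2 change of −1.36 (adjusted p 2.76e-15 by limma, SE 0.059). Hsp90b1, Calr and Pdia3 were not called, with log2 changes of −0.28, −0.17 and −0.17.

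The ER stress response element, CCAAT and CCACG spaced by 9 bases, stood in 15 of 8422 promoters (0.178%) and in 4 of the 224 of genes called lower (1.79%), which were Birc5, Creld2, Derl3 and Hspa5. None of 99 promoters of genes called higher held it. The 3 promoters of ER genes are shown with the 10 letters of the element in capitals, from RefSeq (GRCr8): Derl3 (chr20:12766466-12766715 on the minus strand), Creld2 (chr7:121789134-121789383 on the plus strand) and Hspa5 (chr3:38452766-38453015 on the plus strand).
Derl3: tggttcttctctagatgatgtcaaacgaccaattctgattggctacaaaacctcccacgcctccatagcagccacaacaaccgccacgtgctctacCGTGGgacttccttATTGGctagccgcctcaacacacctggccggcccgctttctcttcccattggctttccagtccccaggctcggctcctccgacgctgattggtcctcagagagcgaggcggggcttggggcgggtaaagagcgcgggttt
Creld2: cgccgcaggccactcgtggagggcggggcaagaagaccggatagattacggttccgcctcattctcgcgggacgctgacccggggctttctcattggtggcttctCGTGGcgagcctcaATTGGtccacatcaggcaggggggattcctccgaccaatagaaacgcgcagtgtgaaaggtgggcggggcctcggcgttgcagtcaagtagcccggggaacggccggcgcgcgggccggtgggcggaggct
Hspa5: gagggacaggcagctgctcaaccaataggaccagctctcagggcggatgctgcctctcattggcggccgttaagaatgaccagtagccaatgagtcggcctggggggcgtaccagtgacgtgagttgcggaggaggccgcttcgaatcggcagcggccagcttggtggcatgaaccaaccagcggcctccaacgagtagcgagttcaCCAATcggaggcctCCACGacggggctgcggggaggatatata
In Derl3 and Creld2 the element read on the opposite strand, so that it appears as CGTGG and ATTGG, and in Hspa5 it read forward and ended closest to the start site.

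Clock genes moved in both directions, with 3 called up and 2 down among 19 tested, against 1.25% and 2.72% of all genes. Nr1d1 (NM_001113422, rn6 chromosome 10, 86683875 to 86690815), which encodes the repressor REV-ERBα, was at 24.9 and 26.3 TPM in CON, 11.99 and 13.5 at 1 h, 5.82 and 5.24 at 8 h and 26.5 and 27.8 at 16 h. It was thus lowest at 8 h and back near the CON level at 16 h, a log2 change of 2.11 (adjusted p 8.49e-16 by limma, SE 0.084). Its relative Nr1d2 went from 10.6 and 10.1 to 19.4 and 16.3 TPM (0.73) and Dbp, a factor that binds D-boxes, from 48.5 and 48.5 to 67.8 and 81.2 (0.60). Cry1, a repressor of the core clock factors, took the opposite course, with 17.3 and 18.6 TPM at 8 h and 6.73 and 5.88 at 16 h against 11.1 and 11.5 in CON, a log2 change of −1.38 (adjusted p 1.25e-13 by limma, SE 0.072). Per2, a partner of the cryptochromes, went from 17.1 and 17.8 to 11.3 and 9.67 TPM (−0.68). The call of Dbp was lost with spike-in scaling and without replicate 2 of 16 h, and that of Per2 without replicate 2 of 16 h.

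**Figure D2:**
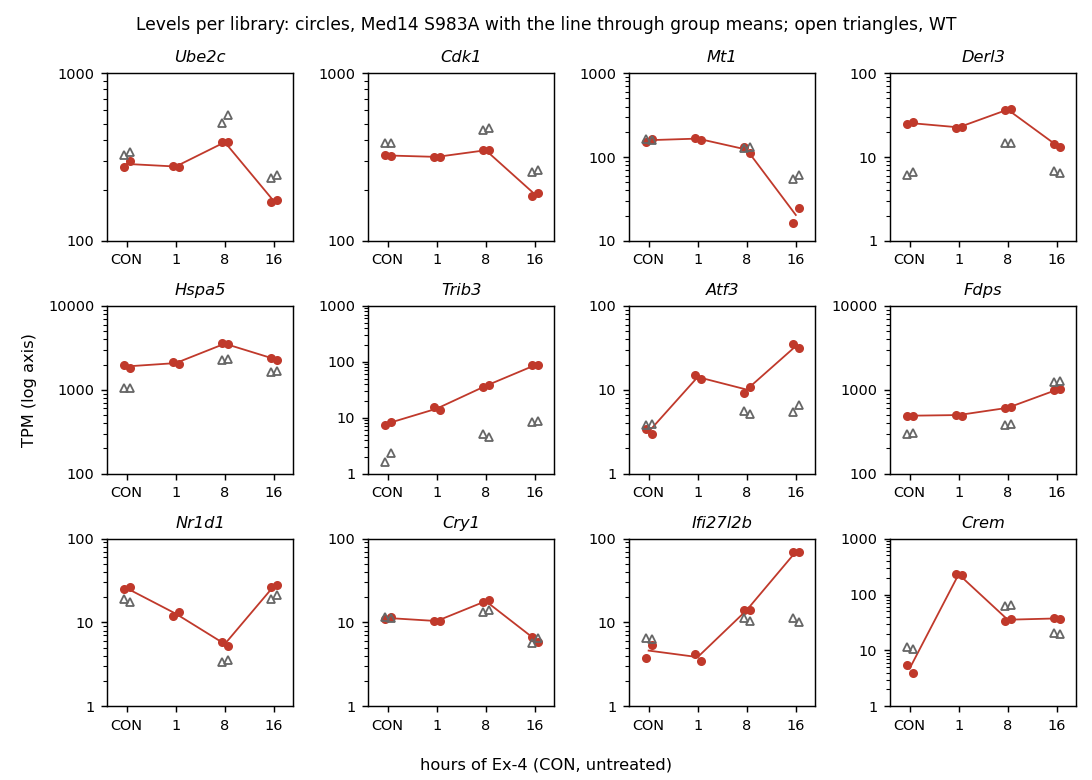
TPM per library (log axes) of 12 genes in Med14 S983A cells in CON and after 1, 8 and 16 h of Ex-4 (circles, line through the means of 2), with WT libraries at CON, 8 and 16 h (open triangles). Ube2c, Cdk1, Derl3, Hspa5 and Cry1 peak at 8 h, Nr1d1 is lowest at 8 h, and Trib3 and Ifi27l2b are highest at 16 h.

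Targets of ATF4 rose as a group. All 23 members tested passed the adjusted p upward and 9 were called, against 1.25% of all genes, with a median log2 change of 0.49 and a range of 0.22 to 1.21. Trib3 (NM_144755, rn6 chromosome 3, 147814066 to 147819650), a pseudokinase induced by stress, was at 7.51 and 8.27 TPM in CON, 15.3 and 13.7 at 1 h, 35.1 and 39.1 at 8 h and 86.5 and 87 at 16 h. Each group lay above the one before, and the step from 8 to 16 h was 1.21 (adjusted p 1.72e-10 by limma, SE 0.094) on the log2 scale. Chac1, which degrades glutathione, went from 46.3 and 51.5 to 94.6 and 90.8 TPM (0.91), and Pycr1, which makes proline, from 31.7 and 32.2 to 58.2 and 59.2 (0.86). Ddit3, the stress factor CHOP, went from 109 and 112 to 182 and 185 TPM, a log2 change of 0.72 (adjusted p 6.85e-10 by limma, SE 0.061). Cth, of cysteine synthesis, and Slc7a11, the cystine transporter, were low in CON, at 2.602 and 2.44 and 0.9 and 0.704 TPM. At 16 h they stood at 8.18 and 8.26 and 16.5 and 13.8 TPM, with log2 changes from 8 h of 0.84 and 0.81. Atf4 itself was at 811 and 840.3 TPM at 8 h and 1130.2 and 1082 at 16 h, a change of 0.42 that was short of 1.5-fold, and Psat1, of serine synthesis, and Atf5 changed by 0.29 and 0.37. With spike-in scaling 6 of the 23 were called and the median was 0.37.

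The amino acid response element, searched as TGATGNAAT on both strands, stood in 0.475% of 8422 promoters, in 1 of 23 of the ATF4 list and in 6 of 99 promoters of genes called higher (6.06%). Those 6 were Angptl8, Ccdc28a, RT1-S2, Snhg4, Spata24 and Pycr1, of which only Pycr1 is in the ATF4 list. Pycr1 (chr10:106420813-106421062 on the minus strand) is shown with the element in capitals, again from RefSeq (GRCr8).
Pycr1: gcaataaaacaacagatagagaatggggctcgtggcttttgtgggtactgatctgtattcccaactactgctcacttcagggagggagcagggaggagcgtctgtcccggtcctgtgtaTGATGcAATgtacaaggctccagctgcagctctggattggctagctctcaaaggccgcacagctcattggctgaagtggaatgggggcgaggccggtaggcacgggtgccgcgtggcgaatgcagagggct

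Genes that load and translate amino acids shifted by less than 1.5-fold but nearly all in 1 direction. Of 18 cytosolic tRNA synthetases, 14 passed the adjusted p upward, none was called, and the median log2 change was 0.28. Sars1, which charges serine tRNA, went from 358 and 365 to 504 and 526 TPM (0.51), and Yars1, for tyrosine, from 339 and 354 to 488 and 485 (0.49). Of 75 cytosolic ribosomal protein genes, 67 passed upward, again with none called, and the median was 0.23. They took up 8.38% and 8.45% of all TPM at 8 h, 9.71% and 9.95% at 16 h, and 9.47% and 9.72% in CON, so the 16 h share was near CON and the 8 h share below it. Many ribosomal protein genes have near-identical copies in the genome, so their counts are uncertain. Of 35 ribosome biogenesis genes 23 passed upward, with a median of 0.15. These shifts depended on scaling, since with the spike-ins the medians were 0.15, 0.11 and 0.03 for the synthetases, the ribosomal proteins and ribosome biogenesis, and 6, 1 and 0 genes passed.

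Cholesterol biosynthesis genes leaned upward, mostly by less than 1.5-fold. Of 21 tested, 3 were called higher, against 1.25% of all genes, and none lower. In TPM 18 passed the adjusted p upward, against 17.5%, and 7 did with spike-in scaling. The median log2 change was 0.28, or 0.16 with spike-in scaling. Tm7sf2, a sterol reductase, stood apart, with 37 and 37.6 TPM in CON, 46.3 and 50.2 at 8 h and 132 and 129 at 16 h, a log2 change of 1.42 (adjusted p 7.15e-17 by limma, SE 0.049). Fdps (NM_031840, rn6 chromosome 2, 188403595 to 188413219), which makes farnesyl diphosphate, was at 492 and 488 TPM in CON, 602 and 616 at 8 h and 982 and 1015 at 16 h. Its 16 h libraries lay above all others, a log2 change of 0.71 (adjusted p 1.82e-15 by limma, SE 0.03). Msmo1, a sterol oxidase, went from 355 and 365 to 571 and 529 TPM (0.61), a call that was lost without replicate 1 of 16 h and with spike-in scaling. Hmgcs1, at the entry to the pathway, was at 128 and 135 and 155 and 145 TPM (0.19), and Sqle, squalene epoxidase, at 191 and 193 and 233 and 226 (0.26), neither of them called. In fatty acid synthesis, the 1 call among 23 was Acss2, which makes acetyl-CoA from acetate, at 49.2 and 49.5 TPM at 8 h and 113 and 108 at 16 h (1.15, limma adjusted p 6.75e-16). No genes were called among 17 of cholesterol sensing and transport or 21 of fatty acid oxidation. The sterol regulatory element, searched as TCACNCCAC, stood in 0.926% of all promoters and in none of the 16 of this list with a RefSeq promoter, which says only that these letters are not in those 250 bases.

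At mean levels of 10 TPM or more, the largest rise was that of Ifi27l2b (NM_206846, rn6 chromosome 6, 127336305 to 127337791), a small protein of the interferon-inducible ISG12 family. It was at 3.78 and 5.45 TPM in CON, 4.25 and 3.47 at 1 h, 14.2 and 13.9 at 8 h and 69.2 and 70.1 at 16 h, a log2 change of 2.23 (adjusted p 3.83e-12 by limma, SE 0.14). Its relative Ifi27 went from 286 and 292 to 258 and 252 TPM (−0.18) and was not called, and reads shared between family members could not be separated here. Cxcl10, a chemokine, was the only other call among 21 genes of interferon and antigen presentation, with 3.01 and 3.17 TPM at 8 h and 14.9 and 13.6 at 16 h (1.89). Casp4, an inflammatory caspase, went from 10.9 and 11.9 to 33.9 and 29.6 TPM after 5.14 and 4.98 in CON, a log2 change of 1.40 (adjusted p 2.65e-10 by limma, SE 0.11).

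Among the other genes with large rises was Fabp3, a fatty acid-binding protein, at 30.4 and 29.2 TPM at 8 h and 69.8 and 69.2 at 16 h, with little change before 8 h (26.7 and 27.2 in CON), a log2 change of 1.19 (adjusted p 1.07e-15 by limma, SE 0.048). Epas1, the hypoxia factor HIF-2α, went from 37.3 and 37.8 to 76.6 and 70.97 TPM (0.96). Slc6a9, a glycine transporter, went from 28.6 and 30.3 to 60.1 and 59.3 TPM (0.998). Each of these groups was separate, and the same held for Trpa1, an ion channel (9.26 and 8.28 against 23.3 and 19.9 TPM). Htra4, a serine protease, rose by 1.04, Stbd1, which binds glycogen, by 1.01, the RNA gene Snhg4 by 0.96 and Tmem150a, a membrane protein, by 0.96 on the log2 scale. Among 14 BCL2 family genes 2 were called, both drivers of cell death and both higher. Hrk went from 8.55 and 8.99 to 17.7 and 16.7 TPM (0.90) and Bbc3 from 12.9 and 12.7 to 19.7 and 21.1 (0.63), and the call of Bbc3 was lost with spike-in scaling and without replicate 2 of 16 h. Aldoc, an aldolase, was the 1 call among 17 glycolysis genes, at 10.2 and 8.695 TPM at 8 h and 14.95 and 15.4 at 16 h (0.63), lost with spike-in scaling and without replicate 2 of 8 h.

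Early cAMP genes were largely flat between 8 and 16 h. None of 27 CREB targets and feedback genes was called with limma (4 passed the adjusted p upward and 8 downward), with a median log2 change of −0.10, although part of that list was named by the study from these libraries. With spike-in scaling 1 was called lower, 3 passed the adjusted p upward and 10 downward, and the median was −0.20. Crem, which encodes inhibitors of CREB-driven transcription, was at 5.48 and 3.97 TPM in CON, 232 and 228 at 1 h, 34.1 and 36.6 at 8 h and 38.8 and 35.9 at 16 h, a log2 change of 0.07 (adjusted p 0.491 by limma, SE 0.081). The nuclear receptor Nr4a1 showed the same course, with 6.53 and 7.36, 353 and 412, 39.5 and 39.1 and 50.3 and 42.4 TPM in that order (0.23). Among 15 AP-1 and early growth response factors 2 were called, both higher, against 1.25% of all genes. Atf3, a stress-induced factor of the ATF family, was at 14.95 and 13.4 TPM at 1 h, 9.196 and 10.9 at 8 h and 35.1 and 31.2 at 16 h, a log2 change of 1.63 (adjusted p 1.01e-12 by limma, SE 0.096). Myc was at 55.5 and 56.5 TPM in CON, 14.2 and 13.5 at 1 h, 63.6 and 63.6 at 8 h and 115 and 119 at 16 h (0.87, limma adjusted p 2.24e-13). Both genes were thus above every CON, 1 h and 8 h Ex-4 library of Med14 S983A cells. Dusp4, a MAP kinase phosphatase, was the 1 call among 14 of its list (7.81 and 8.49 against 16.2 and 13.7 TPM, 0.80). Tac1, the precursor of substance P, was the 1 call among 9 neuropeptide genes, with 25.5 and 27.05 TPM at 8 h and 45.01 and 39.4 at 16 h (0.66), and its call was lost with spike-in scaling and without replicate 1 of 16 h.

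Beta cell genes moved in both directions, nearly all by less than 1.5-fold. Ins1, 1 of the 2 rat insulin genes, was at 47594 and 48326 TPM at 8 h and 45426 and 44612 at 16 h, a log2 change of −0.09 (adjusted p 0.189 by limma, SE 0.055). Ins2 was at 27475 and 26489 and 20103 and 20500.4 TPM, with 32620.4 and 37516 in CON, a fall of 0.41 on the log2 scale that was below 1.5-fold (limma adjusted p 2.48e-06). The insulin genes resemble each other, so the split of reads between them is uncertain. Pcsk1, a prohormone convertase that processes proinsulin, was the 1 call among 18 genes of insulin, granins and processing, from 118 and 115 to 77.8 and 66.9 TPM (−0.68). Of the 18 members, 12 passed the adjusted p upward and 5 downward, with a median of 0.21. Iapp, islet amyloid polypeptide, chosen after its values were seen, was at 2940.0 and 2869 TPM at 8 h and 3762 and 3433 at 16 h, a log2 change of 0.31 that was not called. Pdx1, a master factor of beta cells, went from 254 and 248 to 194 and 203 TPM (−0.34), and Pax6 from 455 and 449.8 to 421 and 419 (−0.11), neither called. Rph3a, which binds Rab proteins on granules, was the 1 call among 26 exocytosis genes, from 7.16 and 6.98 to 4.63 and 3.78 TPM (−0.64). The calls of Pcsk1 and Rph3a were lost without replicate 2 of 16 h.

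Among 30 Mediator subunits, the single call was Cdk19, a kinase of the complex, from 25.3 and 23.9 to 14.3 and 14.7 TPM (−0.72, limma adjusted p 1.25e-10). That count stands beside 2.72% of all genes called lower. The list had 11 members that passed the adjusted p downward and a median of −0.11. No gene was called with limma among 73 of the respiratory chain and ATP synthase, of which 11 passed the adjusted p upward and 6 downward without the fold minimum, or among 30 of the TCA cycle (3 and 7). The same held for 68 mitochondrial ribosomal proteins (13 and 13), 21 cytosolic heat shock proteins (2 and 7), 29 genes of membrane excitability (7 and 2), 29 of insulin and growth factor signalling (1 and 11), 26 from cAMP receptors to kinases (1 and 6) and 37 proteasome subunits (1 and 22). The medians of these 8 lists lay between −0.12 and 0.03. The 19 delayed cAMP genes that the study names had no call, with a median of −0.09. Cck, the hormone cholecystokinin, was at 33.1 and 38.5 TPM in CON, 155 and 157 at 8 h and 122 and 127 at 16 h (−0.32), and Cartpt, a neuropeptide precursor, at 10.9 and 11.6, 56.2 and 53.1 and 49.2 and 47.4 (−0.18).

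Over the same interval in WT cells the mitotic genes fell as well, while several other groups changed by a different amount. In WT, 214 genes rose (2.08%) and 359 fell (3.49%), a balance that turned to 495 and 183 with spike-in scaling and 608 and 294 with DESeq2 on spike-in size factors. Of the genes lower in Med14 S983A, 186 were also lower in WT (66.7% of 279 and 51.8% of 359), and 1 was higher. Of those that rose, 45 also rose in WT (35.2% of 128 and 21% of 214), and 4 fell. Over all 10275 genes, which are not independent, the changes in the 2 genotypes had a Pearson r of 0.585 and a Spearman rho of 0.524, with no library in common. The difference between the genotypes' changes was tested directly, and it was called for 277 genes (2.7%), 174 upward (1.69%) and 103 downward (1.0%). These held 50 of the 128 genes that rose in Med14 S983A and 20 of the 279 that fell. The difference contains the same Med14 S983A libraries that picked those genes, so part of this overlap is built in. The split of called differences depended on scaling, with 146 upward and 156 downward after median-centring and 63 and 786 with spike-in scaling. Members with a called difference under spike-in scaling are to be set beside those 63 and 786 of 10275 genes.

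**Figure D3:**
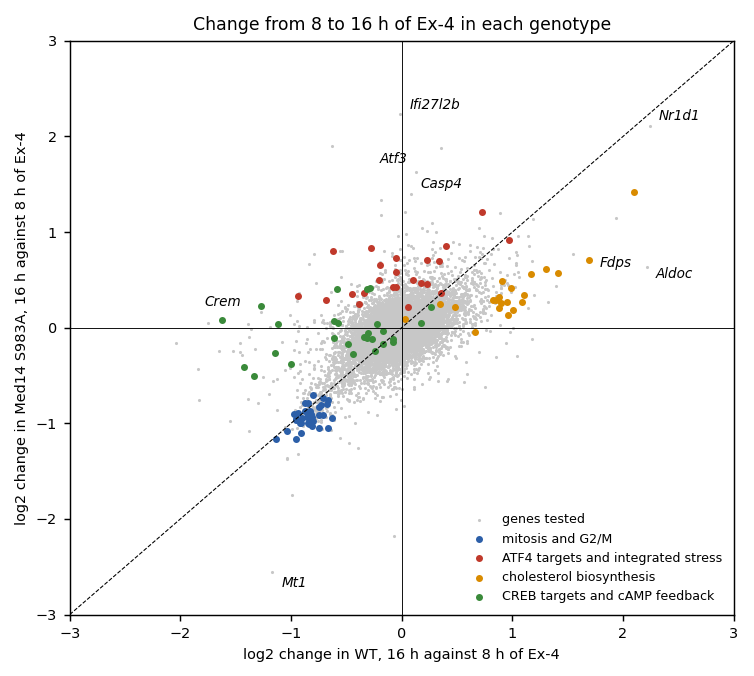
Log2 change from 8 to 16 h of Ex-4 in Med14 S983A (vertical) against WT (horizontal), 1 point per gene tested, 4 lists coloured, with equal change on the dashed line. Mitotic genes lie close to the line, with medians of −0.94 and −0.84, ATF4 targets and CREB feedback genes mostly above it and cholesterol genes below it.

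The mitotic genes were lower at 16 h in WT too, in 37 of 37, with a median log2 change of −0.84, and no member had a called genotype difference in TPM, or 2 with spike-in scaling. The replication list gave 8 lower calls and a median of −0.39 in WT, with no called difference. For Ube2c the WT libraries were at 508 and 560.1 TPM at 8 h and 236 and 247 at 16 h, a change of −1.14, and the difference was −0.02 (adjusted p 0.813 by limma, SE 0.061). ER folding genes had 1 lower call and a median of 0.06 in WT. The genotype difference was called for none in TPM and downward for 8 with spike-in scaling, beside 786 of all 10275 genes. Without the fold minimum 15 of 26 passed the adjusted p for the difference downward and none upward, against 10.5% and 13.9% of all genes. Nr1d1 rose by 2.24 in WT on the log2 scale, with a genotype difference of −0.13 (adjusted p 0.473 by limma, SE 0.12). A difference under the threshold does not show equal change. The genotypes also differed in level in CON, where Ins2 was at 2885 and 2991 TPM in WT and 32620.4 and 37516 TPM in Med14 S983A, and the knock-in and other differences between the cell lines cannot be told apart.

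ATF4 targets differed between the genotypes. In WT their median log2 change was −0.05, with 2 calls up and 3 down. The difference was called upward for 11 of 23, against 1.69% of all genes, and downward for none. Slc7a11 was at 1.96 and 2.04 TPM at 8 h and 0.965 and 0.941 at 16 h in WT, where it fell, and the difference was 1.42 (adjusted p 8.61e-09 by limma, SE 0.12). Psat1 went from 94.6 and 93.7 to 56.7 and 60 TPM in WT, a genotype difference of 0.97 (adjusted p 2.01e-10 by limma, SE 0.066). Ddit3 was at 78.8 and 74.5 and 75.2 and 72.8 TPM in WT, with a difference of 0.77, while Chac1 rose in both, by 0.97 in WT. Of 18 tRNA synthetases, 17 passed the adjusted p for the difference upward, as did 58 of 75 ribosomal protein genes, against 13.9% of all genes. With spike-in scaling 4 of the 23 ATF4 targets had a called difference, while no synthetase and 1 ribosomal protein gene passed.

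Cholesterol genes rose more in WT. There 18 of 21 were called higher, against 2.08% of all genes, with a median of 0.96. The genotype difference was called downward for 13 of 21, against 1.0% of all genes. With spike-in scaling it was called downward for 18, beside 786 of all 10275 genes. Fdps rose from 384 and 393 to 1252 and 1266 TPM in WT, a difference of −0.98 (adjusted p 6.37e-14 by limma, SE 0.042). The WT 8 h libraries lay below those of Med14 S983A, at 602 and 616 TPM, and the WT 16 h libraries above, since Med14 S983A was at 982 and 1015. Hmgcs1 went from 147 and 147 to 298 and 297 TPM in WT, a difference of −0.82 (adjusted p 2.55e-08 by limma, SE 0.077). Aldoc had the largest downward difference at a mean level of 10 TPM or more, with 3.24 and 2.52 TPM at 8 h and 17 and 16.8 at 16 h in WT, a difference of −1.58 (adjusted p 8.09e-10 by limma, SE 0.12).

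None of the 27 CREB targets and feedback genes was called in Med14 S983A with Ex-4 in TPM. With FSK in the same cells 17 fell over this interval, against 6.4% of all genes, with a median of −0.79. The difference between Ex-4 and FSK was called upward for 15, against 4.36%, and downward for 0. In WT with Ex-4, 10 of the 27 fell between 8 and 16 h, against 3.49% of all genes, with a median of −0.35. For the genotype difference 12 were called upward, against 1.69% of all genes, or 6 with spike-in scaling. Crem was at 61.6 and 64.02 TPM at 8 h and 20.2 and 19.3 at 16 h in WT, a change of −1.62 and a difference of 1.70 (adjusted p 1.80e-10 by limma, SE 0.12). Nr4a1 went from 52.1 and 56.2 to 21.4 and 22.2 TPM in WT, a difference of 1.5 (adjusted p 2.29e-09 by limma, SE 0.12). At 8 h both genes were higher in WT than in Med14 S983A, and at 16 h both were lower. The AP-1 list of 15 genes had 3 lower calls in WT, against 3.49% of all genes. For the genotype difference 6 of its members were called upward, against 1.69%, or 3 with spike-in scaling. In TPM the 6 included Atf3, which was at 5.58 and 5.08 and 5.36 and 6.51 TPM in WT (1.502). Ifi27l2b stayed at 11.3 and 10.4 and 11.2 and 10.2 TPM in WT, which gave the largest upward difference at that level, 2.25 (adjusted p 1.20e-08 by limma, SE 0.20). Casp4 was at or below 0.181 TPM in all 4 WT libraries at 8 and 16 h, so its difference of 1.31 compares a gene that WT cells barely had, and it was lost with edgeR, DESeq2 and a pseudocount of 0.1. Stk32a, a protein kinase, rose in Med14 S983A (0.77) and fell in WT (−0.79), as did Tac1 (0.66 and −0.84).

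**Figure D4:**
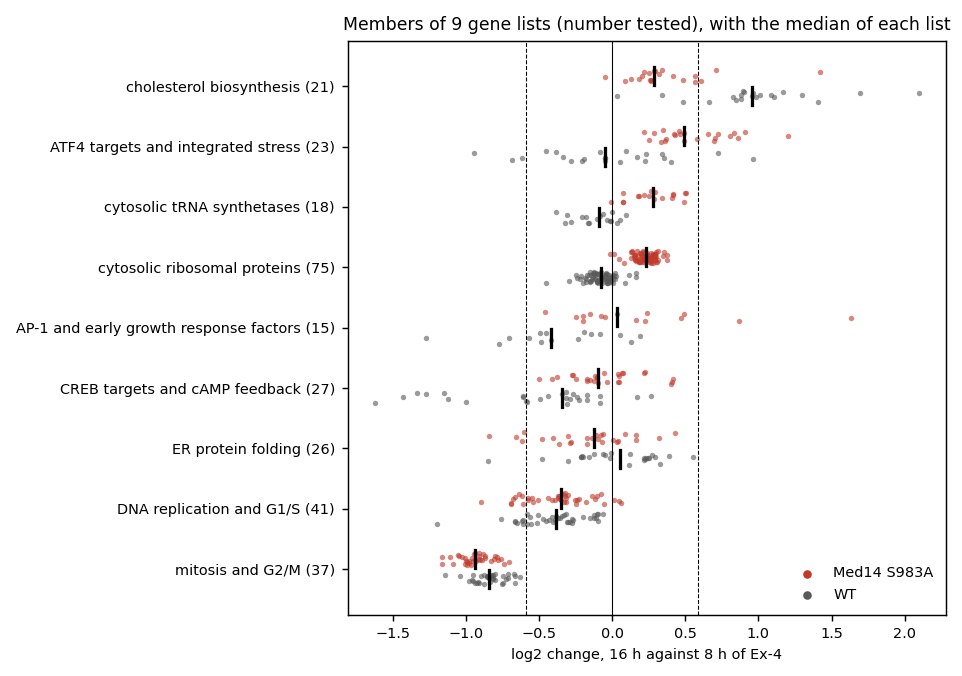
Log2 change from 8 to 16 h of Ex-4 of each member of 9 gene lists in Med14 S983A (red) and WT (grey), with black bars at the medians and dashed lines at 1.5-fold. Mitotic genes fall in both, ATF4 targets have medians of 0.49 and −0.05, and cholesterol genes medians of 0.28 and 0.96.

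With FSK in Med14 S983A cells many more genes changed over the same interval. Between 8 and 16 h of FSK, 2212 genes rose (21.5%) and 658 fell (6.4%), or 1410 and 1187 after median-centring and 4171 and 250 with spike-in scaling. Of the genes that rose with Ex-4, 67 rose with FSK (52.3% of 128 and 3.03% of 2212), beside a background of 21.5%. Of those that fell, 121 fell with FSK (43.4% of 279 and 18.4% of 658). Across genes r was 0.452 and rho 0.435, with no shared library. The difference between the agents' changes was called for 448 genes upward (4.36%) and 2220 downward (21.6%), or 919 and 1197 after median-centring and 129 and 5473 with spike-in scaling. With FSK 21 of 37 mitotic genes were called lower, against 6.4% of all genes, with a median of −0.60. The difference between the agents was called downward for 7 of them, against 21.6%. ATF4 targets had a median of −0.32 with FSK, with 3 calls up and 4 down. Their difference was called upward for 17 of 23, against 4.36%, and downward for 2. Nr1d1 rose with either agent, by 2.18 with FSK, and Enpp2 fell with either, with a log2 change of −3.29 with FSK. Trib3, which rose with Ex-4, was at 204 and 195 TPM at 8 h and 142 and 146 TPM at 16 h of FSK, a change under 1.5-fold and a difference of 1.67 (adjusted p 8.54e-11 by limma, SE 0.13). The fall of Txnip with Ex-4 had no counterpart, since with FSK it went from 3.04 and 2.88 to 6.32 and 6.34 TPM, a log2 change of 0.89 and a difference of −2.10 (adjusted p 2.22e-13 by limma, SE 0.12).

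**Figure D5:**
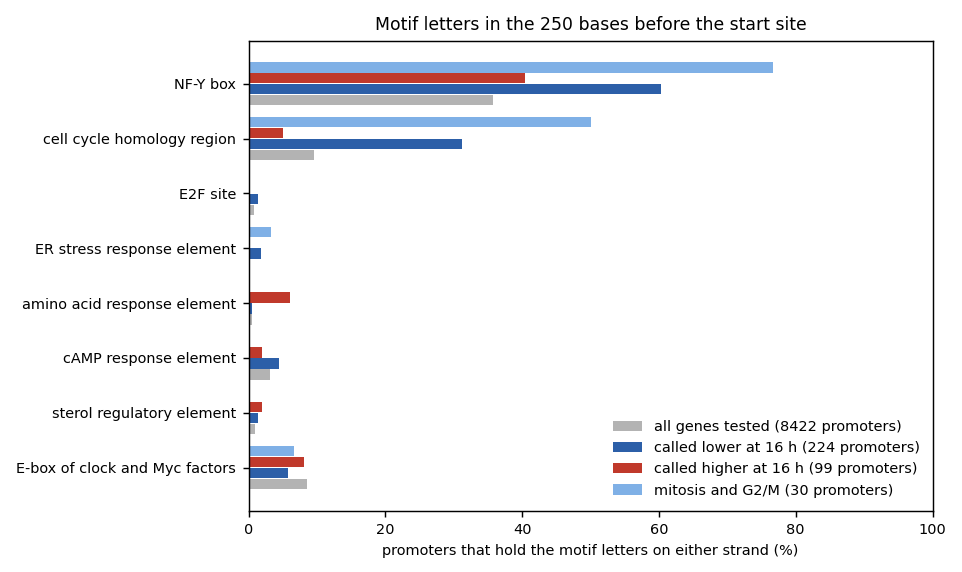
Share of promoters (%) that hold the letters of 8 motifs in the 250 bases before the start site, for 8422 genes tested, 224 called lower, 99 called higher and 30 of the mitosis and G2/M list. CCAAT and TTTGAA stand in 76.7% and 50% of the mitotic promoters against 35.7% and 9.58% of all. CCAAT also stands in 81.2% of 16 promoters of the cholesterol biosynthesis list, which is not drawn.

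Motifs of cAMP and clock factors gave the following shares. The cAMP response element TGACGTCA was in 2.02% of promoters of genes called higher and 4.46% of those called lower, against 3.15% of all, and its inner letters TGACG in 29.3% and 27.2%, against 30.1%. The E-box CACGTG was in 8.08% and 5.8%, against 8.55%. By list, TGACGTCA stood in 3 of 21 CREB target promoters (14.3%), in 4.35% for ATF4 targets and 3.23% for replication. No mitotic, cholesterol or clock promoter held it. TGACG stood in 66.7% for CREB targets, 58.1% for replication, 50% for cholesterol, 36.7% for mitotic, 30.4% for ATF4 and 17.6% for clock genes. CACGTG stood in 3 of 17 clock promoters (17.6%), and in 4.76% for CREB targets to 13% for ATF4 targets in the other lists. Such counts describe letters in a window and name no bound factor.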

How the data were processed

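The tables deposited for 28 INS-1 libraries were analysed. The authors aligned reads to rn6 and spike-in sequences with STAR 2.5.3a and quantified RefSeq transcripts with HOMER 4.11.1. Their deposited TPM entered the tests without rescaling. Raw counts were deposited for the 92 ERCC spike-ins, made by the authors with QoRTs. These were added to total RNA before library construction, so scaling on them is relative to RNA input and not to cells. For their own calls the authors used DESeq2 1.24.0, with size factors from the spike-ins. The gene table holds no counts, so TPM were tested on a log scale.

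Of 19223 lines, 92 were spike-ins. The transcript with the highest mean TPM per symbol was kept (1676 dropped, 17455 symbols), and 10275 genes averaging 1 TPM or more across all 28 libraries were tested. Log2(TPM + 1) was fitted with limma 3.58.1 in R 4.3.3 (a mean for each of 14 groups, eBayes with trend). Tests were two-sided, Benjamini-Hochberg adjusted within a contrast, with calls at an adjusted p under 0.05 and over 1.5-fold. Fragments were rebuilt from TPM and transcript length with the ERCC counts as anchor, and rounded to whole numbers for edgeR and DESeq2. Of 165496 low values, 54.4% were whole within 0.05 beyond the rounding of the TPM, against 16.8% by chance. All were whole in steps of 0.5 fragments, for which no chance share was computed. Libraries held 38542743 to 83715733 fragments. Alternatives were edgeR 4.0.16 and DESeq2 1.42.0 on these fragments, other scalings, filters and pseudocounts, the replicate block, and each library left out.

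In simulated data for this contrast over 10275 genes, limma recovered 100% of 50 genes raised 2-fold and 28% of 50 raised exactly 1.5-fold, with 2 wrong calls. Falls were simulated only at 3-fold and 4-fold (100% of 50 recovered at each), so recovery of smaller falls was not tested. The promoters of 8422 of the 10275 genes were matched in RefSeq (GRCr8) by symbol or transcript. The comparison, the gene lists and the motifs were chosen with earlier results of these data known. Named genes were Med14, the 15 largest called rises and falls averaging 10 TPM or more, up to 6 called and 3 uncalled members per list, the 8 largest genotype differences and 6 largest agent differences per direction, and genes the study names. Some picked genes are not reported here.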

Additional observations from a re-analysis of the deposited data

Results flagged for a closer look

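The change from 8 to 16 h of Ex-4 differed between the genotypes for 277 genes by the test of the difference itself. At a mean level of 10 TPM or more, the largest upward differences on the log2 scale, Med14 S983A minus WT, were those of Ifi27l2b (2.25), Crem (1.70), Stk32a (1.56), Atf3 (1.502), Nr4a1 (1.5), Tac1 (1.501), Car2, a carbonic anhydrase (1.41), and Casp4 (1.31). The largest downward differences were those of Aldoc (−1.58), Mt1 (−1.39), Nxph4, a neurexophilin (−1.35), Ak4, an adenylate kinase (−1.30), Pcp4l1 (−1.16), Copz2, a coatomer subunit (−1.06), Fdps (−0.98) and the locus LOC691995 (−0.96). Mt1 fell in both genotypes, to 16.2 and 24.5 TPM in Med14 S983A and 54.5 and 61.4 TPM in WT, from 132 and 113 and 129.8 and 133. Car2 fell in WT from 38.5 and 39.6 to 11.9 and 11.6 TPM and was at 36.6 and 39.1 and 33.8 and 30.1 TPM in Med14 S983A. Nxph4, Ak4, Pcp4l1 and Copz2 rose in WT by 1.05, 1.18, 0.85 and 1.32, and changed by −0.30, −0.12, −0.31 and 0.26 in Med14 S983A. Of these 16 differences, 15 were called under every alternative, the exception being Casp4.

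The change differed between Ex-4 and FSK in Med14 S983A for 2668 genes. The largest upward differences, Ex-4 minus FSK, were those of Pdlim1, a cytoskeletal protein (2.25), Mir3547 as listed by its gene symbol (1.996), Wif1, a Wnt inhibitor (1.91), Cntfr, a cytokine receptor (1.70), Mertk, a receptor kinase (1.67), and Trib3 (1.67). The largest downward differences were those of Fxyd5 (−2.71), Tspan17, a tetraspanin (−2.69), Rab26, a granule Rab (−2.30), Dhrs1, a reductase (−2.14), Stn1, of telomere replication (−2.13), and Slc44a3 (−2.12). All 12 were called under every alternative. Wif1 was at 245 and 237 and 257 and 239 TPM at 8 and 16 h of Ex-4 and fell from 95.1 and 93.9 to 23.9 and 26.5 TPM with FSK. Tspan17 was at 16.5 and 17 and 17.2 and 16.8 TPM with Ex-4 and rose from 2.84 and 2.83 to 24.9 and 23.4 TPM with FSK.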

How the results depend on the processing

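For 16 against 8 h of Ex-4 in Med14 S983A, counts of 84 higher and 449 lower genes with ERCC scaling, 629 lower with DESeq2 on ERCC size factors, 227 higher with edgeR, 223 higher with DESeq2, and 1803 and 2499 without the fold minimum departed from 128 and 279 by over 1.5 times. In WT they were 495 and 183 with ERCC scaling, 608 higher with DESeq2 on ERCC size factors, 430 higher with edgeR, 431 higher with DESeq2, and 1940 and 3373 without the minimum. For the genotype difference they were 63 and 786 with ERCC scaling, 67 and 855 with DESeq2 on ERCC size factors, 156 lower after median-centring, 183 lower with a pseudocount of 0.1 TPM, 241 lower with edgeR, 230 lower with DESeq2, and 1430 and 1076 without the minimum. For FSK they were 1410 and 1187 with median-centring, 4171 higher and 250 lower on ERCC scaling, 4592 and 306 with DESeq2 on ERCC size factors, 1326 and 1315 lower with edgeR and DESeq2, and 5212 and 2615 without the minimum. For the agent difference they were 919 and 1197 with median-centring, 129 and 5473 with ERCC scaling, 143 and 5775 with DESeq2 on ERCC size factors, 1015 and 1008 higher with edgeR and DESeq2, and 1699 and 5022 without the minimum. The cause was not tested, apart from the fold minimum, which by construction removes small changes.

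With 1 library left out, the 4 libraries of the contrast gave 132 to 144 higher and 276 to 317 lower genes, and 366 to 373 of the 407 calls were kept without replicate 1 of 8 h or either replicate of 16 h. ERCC scaling kept 363 of the 407 and edgeR 393. Replicate numbers did not pair the samples (r 0.0076 between the deviations at 8 and 16 h), and with the replicate number as a block the counts were 128 and 279. Of 68 named genes called in the contrast, 57 held under every alternative, and none of 3822 values for single genes turned its sign while called. With 2 libraries per group, calls close to 1.5-fold are the least certain.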
